A study of Mus musculus with 9 samples.

Results

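Genes of the Nrf2 antioxidant response were followed at the mRNA level in populations sorted from mouse olfactory epithelium. They are the transcription factor gene Nfe2l2, which encodes Nrf2, its regulators Keap1, Bach1 and Maff, and the target enzyme genes Nqo1, Hmox1, Gclc, Gclm, Txnrd1 and Srxn1. These 10 genes of 21909 in the tables were selected on the level of Nfe2l2, which was seen to be lower in globose basal cells than in the other populations, and its known regulators and targets were set beside it. The lower level of Nfe2l2 in that population is therefore how the genes were found and is described here without a test.

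The 3 mRNA libraries represent cells of the main olfactory epithelium at an age of 4 weeks, with 1 library per population. The horizontal basal cell (HBC) library held cells that bound an antibody to CD54, the product of Icam1, which leukocytes and endothelial cells are also known to carry. The globose basal cell (GBC) library held cells positive for an EGFP reporter of Neurog1, a proneural gene, and the mature olfactory sensory neuron (mOSN) library cells positive for OMP-ires-EGFP, a reporter of the olfactory marker protein. The labels give no strain, sex or number of animals. ScriptSeq was the kit for HBC and the Illumina mRNA kit that for the other two, so kit and population cannot be told apart in any comparison with HBC. A further 6 samples of the series measured DNA modifications and were not analysed here.

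Nrf2 is a basic leucine zipper factor that is made continuously and, in resting cells, held by Keap1 and handed to a Cul3 ubiquitin ligase for destruction. Oxidants and electrophiles modify cysteines of Keap1, Nrf2 then accumulates, pairs with a small Maf protein such as Maff and binds antioxidant response elements beside genes for detoxification, glutathione, thioredoxin and haem breakdown. Bach1 pairs with the same small Mafs and represses an overlapping set of genes until haem releases it. The olfactory epithelium is exposed to inhaled chemicals and is known for high levels of detoxifying enzymes. Since Nrf2 is controlled largely through its stability, mRNA levels of Nfe2l2 do not measure Nrf2 activity.

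Promoter sequence was available for 8 of the 10 genes, in 12 windows of 250 bases before a RefSeq start (build GRCm38.p6), and these windows are shown because response elements are what the target genes are known to share. The core of the antioxidant response element, TGACNNNGC on either strand, was found before Nfe2l2, Gclm, Txnrd1 and Maff, in 4 of the 12 windows, against 10.2% of 32851 windows of all genes. The CNC and small Maf element TGANTCAGC, which can overlap the core, was found before Srxn1 alone of the 8 and in 1.02% of all windows. Capitals mark the match, and each stretch is written 5′ to 3′ on the strand of its gene.
Srxn1 (chr2:152105467-152105499, plus strand, match from 45 to 37 bases before the start): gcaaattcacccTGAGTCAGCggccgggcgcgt
Maff (chr15:79346497-79346529, plus strand, match from 112 to 104 bases before 1 of 3 starts): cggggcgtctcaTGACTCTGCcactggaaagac
Gclm (chr3:122245411-122245443, plus strand, match on the opposite strand): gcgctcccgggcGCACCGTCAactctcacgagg
Txnrd1 (chr10:82859102-82859134, plus strand, match on the opposite strand, before 1 of 3 starts): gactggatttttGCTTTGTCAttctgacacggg
Nfe2l2 (chr2:75704883-75704913, minus strand, match from 240 to 232 bases before the start): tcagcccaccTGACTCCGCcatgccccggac
A match describes these letters only, and binding was not measured. Sequence outside the 250 bases was not searched, so a gene without a match here may have an element elsewhere.

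Expression is given as FPKM, a fragment count corrected for transcript length and library size, with the interval deposited by the authors. The intervals cover counting error only. With 1 library per population there is no replicate error, no test between populations and no p-value. All 10 genes had status OK and 1 row in each library, and their values rested on 100 to 7883 fragments as implied by the intervals. A gene is called higher or lower below when it reached 1 FPKM in either library and the ratio of FPKM + 1 was at least 2-fold, a scale that understates differences of low genes.

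The sorted populations were described by marker genes. The lists include the genes that the cells were sorted on, and these give no check of the sort. They are Icam1 (136 FPKM in HBC), Neurog1 (163 FPKM in GBC) and Omp (1487 FPKM in mOSN). All 8 basal cell markers were above 1 FPKM in HBC, where they summed to 1433 FPKM, against 1.99 in GBC and 3.37 in mOSN. The 8 mature neuron markers summed to 147 FPKM in HBC, 1082 FPKM in GBC and 9187 FPKM in mOSN. Precursor markers summed to 13.3 FPKM in HBC, 461 FPKM in GBC and 7.21 FPKM in mOSN. Immature neuron markers were also high in GBC, with a sum of 1822 FPKM against 21.1 in HBC and 350 in mOSN. The HBC library also held markers of other cells. All 14 macrophage markers exceeded 1 FPKM there, from 43.0 to 1228 FPKM, and summed to 3867 FPKM, against 5.19 in GBC and 3.94 in mOSN. Aif1 was listed at 0 in mOSN. Sustentacular markers summed to 1940 FPKM in HBC, 47.3 FPKM in GBC and 157 FPKM in mOSN, but not all had that order. Cbr2 (881 FPKM) and Cyp2f2 (748 FPKM) made up most of the HBC sum, while Cyp2g1 (11.1 FPKM in HBC, 7.76 FPKM in GBC and 46.1 FPKM in mOSN) and Cyp1a2 (1.99, 0.999 and 5.14 FPKM) were highest in mOSN. Bowman gland markers summed to 919, 7.76 and 20.7 FPKM. Of the HBC sum, 727 FPKM came from 5430413K10Rik, while Muc2 was highest in mOSN (1.05, 0.707 and 2.12 FPKM). Neutrophil markers summed to 123, 12.2 and 8.98 FPKM, and endothelial markers to 11.2, 1.09 and 0.882 FPKM. Genes that respond to tissue dissociation summed to 5693 FPKM in HBC, 444 FPKM in GBC and 581 FPKM in mOSN. The part of these cells and of this response in the HBC values below was not tested. In such bulk libraries, fewer cells of a type and less RNA per cell cannot be told apart.

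Nfe2l2 (mm9 chromosome 2, 75513576 to 75542698) had 64.6 FPKM in HBC (interval 63.1 to 66.2), 14.8 FPKM in GBC (13.9 to 15.7) and 97.0 FPKM in mOSN (94.4 to 99.5). Its mRNA was thus abundant in the HBC and mOSN libraries and lower in the GBC library. By rank it stood at place 339 of all genes in HBC, at 2954 in GBC and at 317 in mOSN, a measure that no rescaling of a whole library can alter. The log2 ratio was 2.63 for mOSN against GBC and -2.05 for GBC against HBC. These ratios stayed between 2.32 and 2.63 and between -2.68 and -2.05 as deposited and under 3 other scalings. Between mOSN and HBC the order was not stable, with a log2 ratio of 0.58 as deposited, 0.09 with libraries scaled to a common sum, -0.22 with median-of-ratios scaling and -0.15 with 1 conversion factor per gene.

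**Figure D1:**
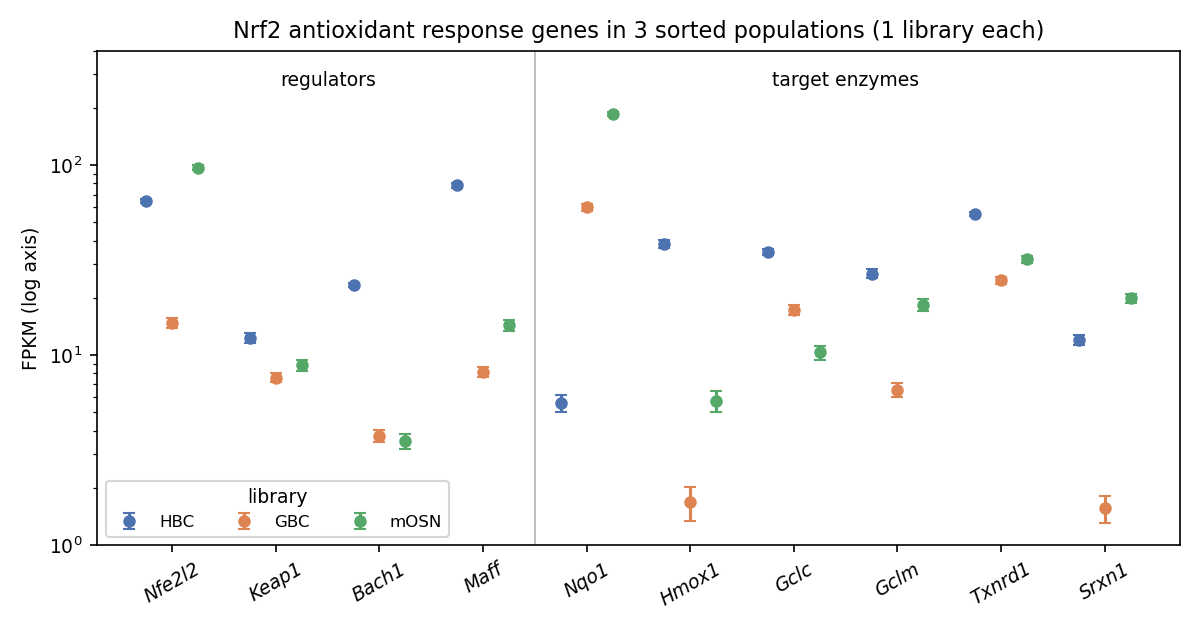
FPKM on a log axis of the 4 regulator and 6 target enzyme genes in the HBC, GBC and mOSN libraries, 1 library each, with error bars for the deposited intervals. Nfe2l2, Hmox1, Gclm and Srxn1 form a dip at GBC, Nqo1 climbs along the lineage to 187 FPKM in mOSN, and Maff and Bach1 are high in HBC alone.

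Keap1 (chromosome 9, 21034174 to 21043776), the adaptor that marks Nrf2 for destruction, varied less than Nfe2l2 as deposited. It had 12.3 FPKM in HBC (interval 11.6 to 13.1), 7.61 FPKM in GBC (7.20 to 8.01) and 8.86 FPKM in mOSN (8.25 to 9.47), and passed 2-fold in none of the 3 comparisons as deposited, though mOSN against HBC stood at -1.18 with median-of-ratios scaling. The direction between GBC and HBC was not settled, at a log2 ratio of -0.63 as deposited, -1.21 with median-of-ratios scaling and 0.37 with 1 conversion factor per gene, and the mOSN against GBC ratio of 0.20 became -0.53 with that last setting. Because FPKM is scaled to length, levels of the 2 genes can be set against each other within a library. Nfe2l2 exceeded Keap1 5.23-fold in HBC, 1.94-fold in GBC and 10.9-fold in mOSN. The number of fragments that made up 1 FPKM of a gene was not equal between libraries, at 0.640 times in GBC over HBC for Nfe2l2 and 2.15 times for Keap1, and the part of this in such ratios was not tested.

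Bach1 (chromosome 16, 87699199 to 87733591), the haem-sensed repressor, and Maff (chromosome 15, 79178108 to 79189506), a small Maf partner, were highest in HBC. Bach1 had 23.4 FPKM in HBC (interval 22.8 to 24.0), 3.77 FPKM in GBC (3.49 to 4.04) and 3.50 FPKM in mOSN (3.19 to 3.82). The GBC and mOSN intervals of Bach1 overlap, the sole overlap among the 30 pairs of values of the 10 genes. Within a library Nfe2l2 exceeded Bach1 2.76-fold in HBC, 3.93-fold in GBC and 27.7-fold in mOSN. Maff had 78.2 FPKM in HBC (75.8 to 80.5), 8.15 FPKM in GBC (7.65 to 8.66) and 14.3 FPKM in mOSN (13.3 to 15.3). Maff is also known as a stress-induced early gene, and the dissociation response genes were high in the same HBC library, a link that was not tested. The mOSN against GBC difference of Maff (log2 ratio 0.74) turned to -0.24 with 1 conversion factor per gene, while its lower level in GBC than in HBC (-3.11) stood at -1.99 there.

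The 2 related small Maf genes did not share one pattern. Mafk had 34.5 FPKM in HBC, 2.42 FPKM in GBC and 6.16 FPKM in mOSN, and thus resembled Maff. Mafg had 13.7, 12.3 and 18.4 FPKM and passed 2-fold in no comparison under the 4 scalings, with directions that changed between them. Mafg stood at 0.176 times the level of Maff in HBC, 1.51 times in GBC and 1.28 times in mOSN, so the small Maf with the highest FPKM was Maff in HBC and Mafg in GBC and mOSN.

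Among the target enzymes, Nqo1 (chromosome 8, 109912125 to 109927105), a quinone reductase often used to read Nrf2 activity, had its own pattern. It had 5.61 FPKM in HBC (interval 5.03 to 6.18), 60.0 FPKM in GBC (57.5 to 62.5) and 187 FPKM in mOSN (182 to 191), where it ranked 117 of all genes. The FPKM was 3.11-fold higher in mOSN than in GBC and 10.7-fold higher in GBC than in HBC, and both differences passed 2-fold under all 4 scalings. Its order was thus not that of Nfe2l2: GBC, the library with the least Nfe2l2, had more Nqo1 than HBC. Nqo1 is known as a marker of sensory neurons in the dorsal zone of the epithelium. Acsm4, another dorsal zone gene, and Ncam2, a gene of the complementary zone, were looked up after the values of Nqo1 had been seen. Acsm4 had 3.304 FPKM in HBC, 29.2 FPKM in GBC and 69.9 FPKM in mOSN, and Ncam2 had 0.613, 19.9 and 34.6 FPKM. Both were more than 2-fold higher in mOSN than in HBC, a comparison in which 40.4% of all genes were called higher. Between mOSN and GBC the log2 ratio was 1.23 for Acsm4 and 0.77 for Ncam2. The part of the zones in the Nqo1 profile was not tested.

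Hmox1 (chromosome 8, 77617517 to 77624492), the inducible haem oxygenase and a classical target of both Nrf2 and Bach1, was highest in HBC and lowest in GBC. It had 38.5 FPKM in HBC (interval 36.7 to 40.4), 1.68 FPKM in GBC (1.34 to 2.01) and 5.71 FPKM in mOSN (4.98 to 6.44). The GBC value rested on 100 implied fragments and the mOSN value on 245. Macrophages are known for high Hmox1, and their markers were at 43.0 FPKM or more in HBC, but their part in the Hmox1 level was not tested. Nqo1 exceeded Hmox1 35.8-fold in GBC and 32.7-fold in mOSN, whereas in HBC it stood at 0.146 times the level of Hmox1. The log2 ratio of Hmox1 between mOSN and GBC was 1.33 and dropped to 0.68 with a pseudocount of 5 FPKM.

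Srxn1 (chromosome 2, 151931466 to 151937089), which reactivates overoxidised peroxiredoxins, was the nearest in shape to Nfe2l2 of the 8 genes for which a distance was computed, all but Keap1. It had 12.0 FPKM in HBC (interval 11.3 to 12.7), 1.56 FPKM in GBC (1.31 to 1.81) and 19.9 FPKM in mOSN (18.7 to 21.0). The mOSN level was 12.7-fold that of GBC, and the GBC level 0.129 times that of HBC. For Nfe2l2 these were 6.55-fold and 0.229 times, so the dip of Srxn1 was deeper in FPKM as deposited. The distance was taken on FPKM + 1, a scale that understates differences of low genes. With a pseudocount of 0.1 FPKM the log2 ratios were 3.59 and -2.87 for Srxn1, against 2.70 and -2.12 for Nfe2l2. With 1 conversion factor per gene they were 2.53 and -2.39 for Srxn1, against 2.53 and -2.68 for Nfe2l2. The dip of Srxn1 was thus not the deeper one under that setting. As for Nfe2l2, the direction between mOSN and HBC changed with the scaling, from a log2 ratio of 0.68 as deposited to -0.08 with median-of-ratios scaling. The promoter window of Srxn1 carried the CNC and small Maf element printed above, and a link between that element and the profile was not tested.

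Glutamate-cysteine ligase, which catalyses the first step of glutathione synthesis, is built from a catalytic subunit (Gclc) and a modifier subunit (Gclm), and the 2 genes did not share one order. Gclc (chromosome 9, 77602617 to 77641458) had 34.8 FPKM in HBC (interval 33.7 to 35.9), 17.3 FPKM in GBC (16.3 to 18.3) and 10.3 FPKM in mOSN (9.47 to 11.2). Gclm (chromosome 3, 121948510 to 121969566) had 26.8 FPKM in HBC (25.4 to 28.2), 6.56 FPKM in GBC (6.02 to 7.10) and 18.3 FPKM in mOSN (17.0 to 19.7). Gclc thus descended along the lineage while Gclm dipped in GBC. Gclc stood at 1.30 times the level of Gclm in HBC, at 2.64 times in GBC and at 0.563 times in mOSN. Between GBC and HBC the order of the 2 differences depended on the scaling, with log2 ratios of -0.97 for Gclc and -1.88 for Gclm as deposited, and of -1.55 and -1.25 with 1 conversion factor per gene. The mOSN against GBC difference of Gclm, a log2 ratio of 1.35, stood at 0.45 under 1 conversion factor per gene and no longer reached 2-fold.

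Txnrd1 (chromosome 10, 82296696 to 82360469), the cytosolic thioredoxin reductase, had the narrowest range of the 6 enzymes as deposited. With 1 conversion factor per gene Gclm had a narrower one. The largest log2 ratio there was -1.25 for Gclm and -1.53 for Txnrd1, both for GBC against HBC. Txnrd1 had 55.2 FPKM in HBC (interval 53.9 to 56.4), 24.7 FPKM in GBC (23.8 to 25.7) and 31.8 FPKM in mOSN (30.6 to 33.1). The GBC level was lower than that of HBC by 1.13 on the log2 scale. Between mOSN and GBC the ratio was 0.35 as deposited and -0.01 with libraries scaled to a common sum. Between mOSN and HBC the ratio was -0.77 as deposited. It passed 2-fold at -1.28 with a common sum, -1.56 with median-of-ratios scaling and -1.48 with 1 conversion factor per gene.

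Across the 10 genes, 7 had their lowest value in GBC, and 4 (Nfe2l2, Hmox1, Gclm and Srxn1) were at least 2-fold lower there than in both other libraries. Of 14594 genes with 1 FPKM in any library, 21.0% were lowest in GBC and 2.86% were 2-fold below both. Since Nfe2l2 chose the list, the counts for the other 9 genes are 6 and 3. With 1 conversion factor per gene 5 of the 10 were lowest in GBC and 3 were 2-fold below both, Gclm dropping out, beside 23.3% and 3.07% of all genes. With libraries scaled to a common sum the counts were 5 and 4, beside 17.5% and 3.23%. Between mOSN and GBC, 5 of the 10 genes were called higher (Nfe2l2, Nqo1, Hmox1, Gclm and Srxn1) and 0 lower, where 22.4% of 12551 genes were called higher and 10.3% lower. The median log2 ratio of the 10 was 1.03, and 0.74 without Nfe2l2, beside 0.24 over all genes. Between GBC and HBC 7 were called lower (Nfe2l2, Hmox1, Gclm, Txnrd1, Srxn1, Maff and Bach1) and 1 higher (Nqo1), where 23.4% of 13736 genes were called lower and 34.6% higher. The median was -1.97, beside 0.46 over all genes. Between mOSN and HBC 4 were called lower (Hmox1, Gclc, Maff and Bach1) and 1 higher (Nqo1), where 23.0% of 14092 genes were called lower and 40.4% higher, and the median was -0.65, beside 0.63 over all genes. The genes were chosen with these contrasts in view, so nothing is read from the counts, and the 3 comparisons share libraries.

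**Figure D2:**
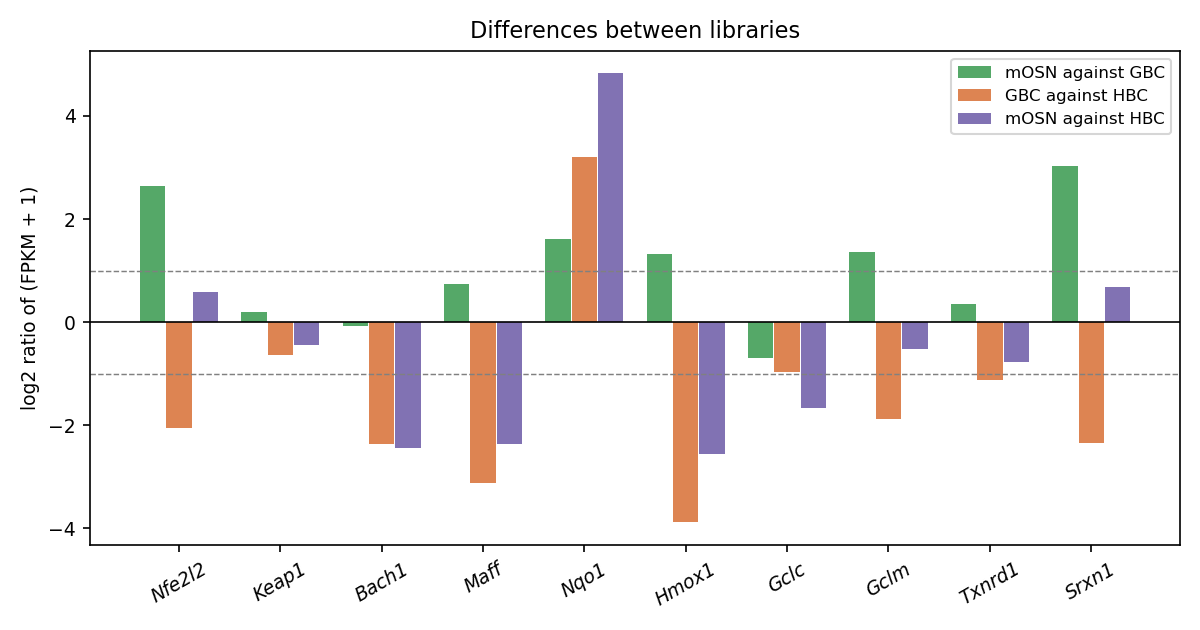
Log2 ratio of FPKM + 1 for each of the 10 genes in the 3 comparisons, with dashed lines at a 2-fold difference. Bars above 0 mean higher in the library named first. The bars of Nfe2l2 and Srxn1 have a similar shape on this scale, and Nqo1 is the sole gene with 3 positive bars past the line.

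**Figure D3:**
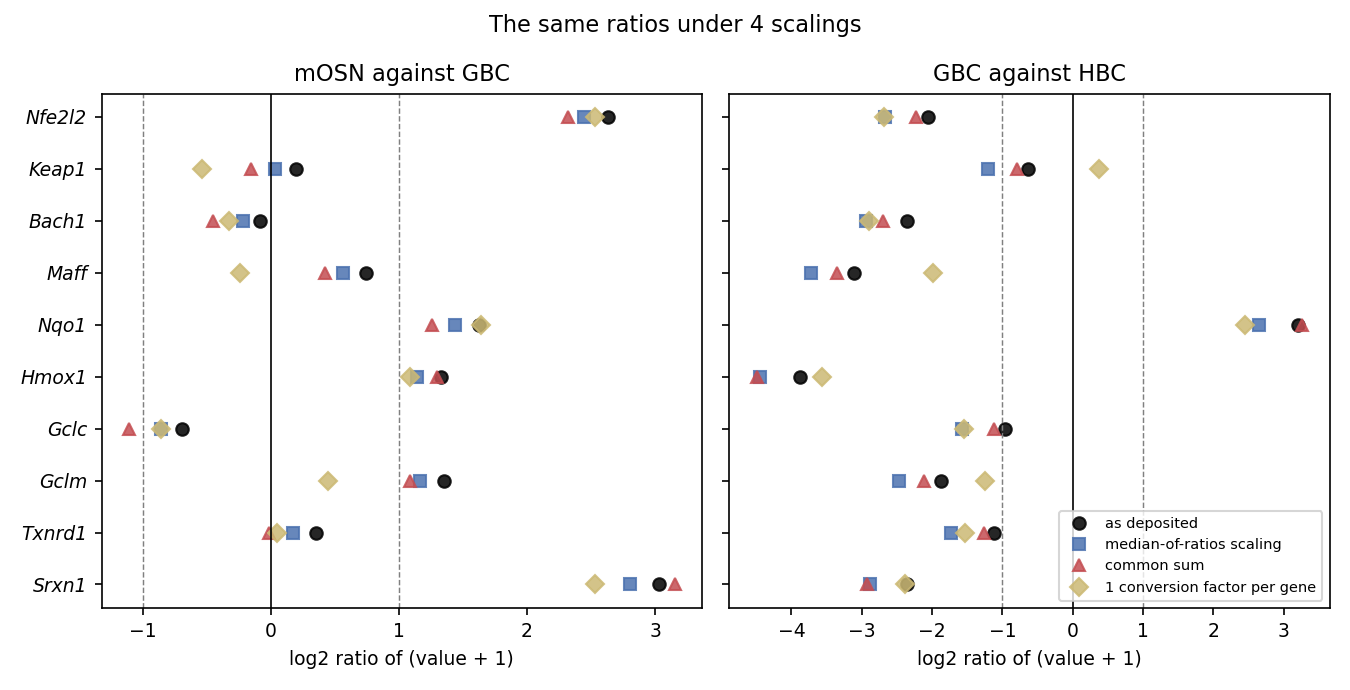
The log2 ratios of the same 10 genes for mOSN against GBC and for GBC against HBC as deposited and under 3 other scalings, with dashed lines at a 2-fold difference. Nfe2l2 and Srxn1 stay far from 0 under all 4, while Keap1 crosses 0 in both panels, and Maff and, by a small margin, Txnrd1 in the first.

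The shape of the Nfe2l2 profile was compared with that of 7370 genes that reached 5 FPKM and varied at least 2-fold. The measure was the distance between log2(FPKM + 1) values centred on each gene's mean over the 3 libraries. The nearest were Cdc14a, a phosphatase gene (distance 0.077; 8.23 FPKM in HBC, 1.36 FPKM in GBC and 13.8 FPKM in mOSN), and Enpp1 (0.108; 6.25, 0.897 and 10.9 FPKM), which encodes a phosphodiesterase that makes pyrophosphate. They were followed by Sh3pxd2a (0.163; 12.9, 2.59 and 18.0 FPKM), a scaffold gene of invasive cell protrusions, Fuca2 (0.194; 11.2, 1.84 and 14.2 FPKM), a fucosidase gene, and Pcgf5 (0.201; 5.23, 0.751 and 10.2 FPKM), a Polycomb gene. Srxn1 stood at place 9 (distance 0.290) and Gclm at place 217 (0.981). The other enzymes were farther away, with Txnrd1 at place 848 and Nqo1 at place 6741. Cdc14a, Enpp1 and Pcgf5 were near 1 FPKM in GBC, where the added 1 FPKM weighs most. No other pseudocount was tried for the distance. With 3 libraries, such a distance describes a shape and no relation between genes.

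A wider list of 70 pathway genes, which includes the 10, was then described by function. Beside the counts below, the shares over all genes were 22.4% higher and 10.3% lower in mOSN against GBC, and 34.6% higher and 23.4% lower in GBC against HBC. With 6 to 16 genes a function, most mOSN against GBC counts were near those shares, and nothing is read from them. Among 16 regulators, 2 were called higher and 1 lower in mOSN against GBC, of 15 measured, and 3 higher and 7 lower in GBC against HBC. The ligase subunit Rbx1 had 5.06 FPKM in HBC, 51.2 FPKM in GBC and 37.2 FPKM in mOSN, and the ligase scaffold Cul3 had 24.9, 33.2 and 56.3 FPKM. For Cul3 the direction turned with 1 conversion factor per gene, to a log2 ratio of -1.19 for GBC against HBC (0.40 as deposited) and -0.40 for mOSN against HBC (1.15 as deposited). Sqstm1, the autophagy receptor that can bind Keap1, had 202 FPKM in HBC against 41.1 in GBC and 40.98 in mOSN. Bach2, the lymphoid and neuronal relative of Bach1, had its highest level where Nfe2l2 was lowest, at 3.17 FPKM in HBC, 8.22 FPKM in GBC and 0.538 FPKM in mOSN. Of the related factors, Nfe2l1 had 35.8, 22.5 and 37.9 FPKM and passed 2-fold in no comparison as deposited, with GBC against HBC at -1.25 under median-of-ratios scaling.

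Of 9 glutathione genes, 0 were called higher and 4 lower in GBC against HBC, and 1 higher and 1 lower in mOSN against GBC. Gpx1, the main cytosolic glutathione peroxidase, had 181 FPKM in HBC, 16.01 FPKM in GBC and 7.55 FPKM in mOSN. Glrx, a glutaredoxin, had 13.02, 1.31 and 0.217 FPKM, and Gpx2, an epithelial glutathione peroxidase, had 6.22 FPKM in HBC, 9.25 in GBC and was listed at 0 in mOSN. The cystine transporter gene Slc7a11, another known Nrf2 target, was low throughout at 1.28, 2.27 and 0.836 FPKM.

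Of 13 thioredoxin system genes, 3 were called higher and 1 lower in mOSN against GBC, and 2 higher and 5 lower in GBC against HBC. The peroxiredoxins, which reduce peroxides, divided by member. Prdx6 had 129 FPKM in HBC, 8.35 FPKM in GBC and 15.4 FPKM in mOSN, Prdx2 peaked in GBC at 277 FPKM against 37.3 in HBC and 78.9 in mOSN, and Prdx1 had 25.4, 19.4 and 80.2 FPKM. The GBC against HBC log2 ratio of Prdx1 was -0.37 as deposited and -2.16 with 1 conversion factor per gene. Txnip, which binds and inhibits thioredoxin, descended from HBC at 67.01 FPKM through GBC at 14.9 to mOSN at 7.18. 

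Of 8 quinone and NADPH genes, 2 were called higher (Nqo1 and Me1) and 1 lower (Idh1) in mOSN against GBC, and Nqo1 alone, of 7 measured, was called in GBC against HBC. Idh1, an NADPH-producing dehydrogenase, had 22.6 FPKM in HBC, 36.97 FPKM in GBC and 6.47 FPKM in mOSN, and its GBC against HBC log2 ratio of 0.68 turned to -0.76 with 1 conversion factor per gene. The pentose phosphate genes G6pdx (20.7, 25.6 and 15.1 FPKM) and Tkt (20.8, 15.2 and 11.9 FPKM) were called in no comparison as deposited. Past 2-fold were G6pdx in mOSN against GBC with a common sum (-1.12), and Tkt in mOSN against HBC (-1.52) and GBC against HBC (-1.02) with median-of-ratios scaling.

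Of 9 haem and iron genes, 6 were called lower and 1 higher in GBC against HBC, and 2 higher and 1 lower, of 8 measured, in mOSN against GBC. Fth1, the ferritin heavy chain, had 1003 FPKM in HBC, 169 FPKM in GBC and 375 FPKM in mOSN. Slc40a1, the iron exporter, had 12.4, 0.111 and 0.077 FPKM and Blvrb, a biliverdin reductase, 14.4, 1.101 and 0.772 FPKM. Like Hmox1 and Fth1, both were highest in HBC, and the part of macrophages or other cells in this was not tested. Hmox2, the constitutive haem oxygenase, went the other way with 21.2 FPKM in HBC, 47.9 FPKM in GBC and 46.3 FPKM in mOSN, a GBC against HBC log2 ratio of 1.14 that was 0.54 with median-of-ratios scaling.

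Of 9 conjugation and export genes, 5 were called lower and 2 higher in GBC against HBC, and 3 higher and 1 lower, of 7 measured, in mOSN against GBC. The epoxide hydrolase gene Ephx1 had 73.5 FPKM in HBC, 1.98 FPKM in GBC and 15.6 FPKM in mOSN, and the glutathione transferase Gstm1 had 162, 7.95 and 29.95 FPKM, so both dipped in GBC. Gsta3, another transferase, had 34.1, 0.959 and 0.933 FPKM. Near-identical copies exist among the transferases, and the labels do not say how fragments shared between copies were counted.

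Of 6 superoxide and peroxide genes, 2 were called higher in mOSN against GBC, of 4 measured, and 4 lower in GBC against HBC. Cat, catalase, had 17.1 FPKM in HBC, 2.73 FPKM in GBC and 1.73 FPKM in mOSN, and Sepx1, a methionine sulfoxide reductase, 21.8, 5.65 and 5.78 FPKM. Sod1, the cytosolic superoxide dismutase, had 63.5, 81.98 and 180 FPKM, and its mOSN against GBC log2 ratio of 1.13 was 0.95 with median-of-ratios scaling.

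**Figure D4:**
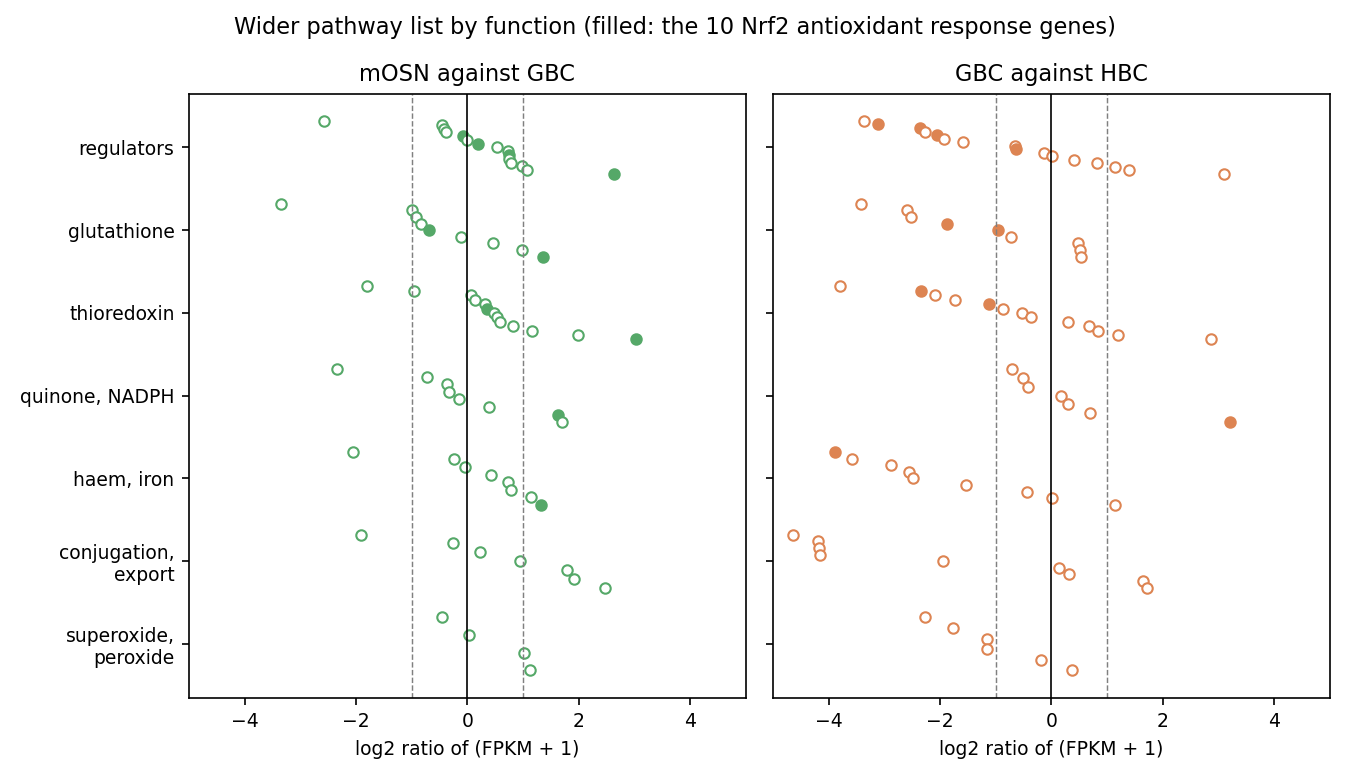
Log2 ratio of FPKM + 1 for the measured genes of the wider pathway list, by function, with filled points for the 10 Nrf2 antioxidant response genes and dashed lines at a 2-fold difference. In mOSN against GBC most points lie within the lines (43 of 64), and in GBC against HBC 31 of 69 lie below -1.

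Over the whole list, 15 genes were called higher and 6 lower of 64 measured in mOSN against GBC, close to the 22.4% and 10.3% of all genes, with a median log2 ratio of 0.37. In GBC against HBC 9 were called higher and 31 lower of 69 (34.6% and 23.4% of all genes), with a median of -0.71. In mOSN against HBC 14 were called higher and 32 lower of 70 (40.4% and 23.0% of all genes), with a median of -0.70. Without the 10 genes, 22 of the other 60 were lowest in GBC and 4 (Ephx1, Fth1, Gstm1 and Mafk) were 2-fold below both other libraries, beside 21.0% and 2.86% of all genes. With median-of-ratios scaling those were 25 and 2 (Ephx1 and Gstm1), beside 25.5% and 3.16%, so the 2 of 60 were near the share of all genes.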

How the data were processed

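Poly-A RNA was sequenced from 1 library per sorted population, and samples were grouped by their titles. Each deposited table lists the FPKM of every gene with its interval and status, per the file headers. Bowtie, TopHat, Cufflinks and mm9 are named in the submitters' processing notes. Their versions and the annotation were not stated. Rows of 1 symbol were added up, though each of the 10 genes had 1 row. Fragments were read from the interval half-width, 2 times FPKM over the square root of the count. The sums were 18123310 for HBC, 18086991 for GBC and 16515790 for mOSN. Below 100 fragments, 69.0% to 77.6% were within 0.03 of a whole number. Ratios were log2 of FPKM + 1 (Python 3.11.15, pandas 2.3.3). Starts were raised by 1 to count from 1.

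The 10 genes and all lists were chosen with earlier results of these data known. The named genes were the 10, up to 3 others per function with the largest ratio at 5 FPKM, and the 5 genes most like Nfe2l2. Cul3, Sqstm1, Mafg, Nfe2l1, Slc7a11, Prdx1, Hmox2, Me1, Acsm4 and Ncam2 were added after their values were seen. All 70 pathway symbols matched the tables, Msrb1 as Sepx1. Alternatives were pseudocounts of 0.1 and 5 FPKM, a common sum, median-of-ratios scaling, 1 conversion factor per gene from fragments to FPKM, no filter, a filter at 5 FPKM, the highest row per symbol, and leaving out FAIL and LOWDATA rows. No promoter was printed for Hmox1 and Gclc.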

Additional observations from a re-analysis of the deposited data

How the results depend on the processing

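Counts of genes at least 2-fold different, for the 10 genes and the 70 pathway genes, stayed within 1.5 times in 101 of 108 values over 9 alternatives. With libraries scaled to a common sum, 1 of the 10 genes (Gclc) was lower in mOSN than in GBC, against 0 as deposited, and 12 pathway genes against 6. A pseudocount of 0.1 FPKM gave 10 such pathway genes. With median-of-ratios scaling, 5 pathway genes against 9 were higher in GBC than in HBC. That scaling also gave 7 against 14 higher in mOSN than in HBC, and 7 of the 10 genes against 4 lower there. With 1 conversion factor per gene 8 pathway genes were higher in mOSN than in HBC. The cause was not tested.

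Of 18 ratios of the 10 genes past 2-fold, 0 changed sign and 2 (Hmox1 and Gclm, mOSN against GBC) fell under 2-fold in an alternative. Of 12 ratios under 2-fold, 6 changed sign in at least 1 alternative. Some of the 12 passed 2-fold in an alternative. They were Gclc (mOSN against GBC and GBC against HBC), Keap1 (GBC against HBC and mOSN against HBC), and Gclm and Txnrd1 (mOSN against HBC). The median of all genes was 0.24 for mOSN against GBC as deposited and -0.18 with a common sum, and 0.46 for GBC against HBC and -0.11 with median-of-ratios scaling. Implied fragments per FPKM differed between libraries for the same gene, by 0.559 to 2.28 times between GBC and HBC among the 10 genes. No paired analysis was possible because each group had 1 library.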
